A study of Pyronema omphalodes CBS 100304 with 6 samples.

Results

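The genes described here encode repeat proteins of *Pyronema confluens*, a soil-living filamentous ascomycete (strain CBS 100304). They were chosen from the deposited gene table by the predicted gene product, which names the most similar known protein. A gene was taken when this text contained ankyrin, vegetative or heterokaryon incompatibility, tetratricopeptide or TPR repeat, nephrocystin, kinesin light chain or NACHT, and left out when it also contained kinase or ubiquitin. This gave 231 of 13369 genes. By the same text, 184 were ankyrin genes, 22 were incompatibility genes, 12 resembled kinesin light chains, 8 were other tetratricopeptide repeat (TPR) genes and 5 resembled nephrocystin-3. No product contained the word NACHT, and 3 ankyrin products also named TPR repeats. The class names rest on sequence similarity recorded in the annotation, and no function of these genes was measured.

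Ankyrin and tetratricopeptide repeats are short helical units that stack into surfaces for binding other proteins. Proteins built from them act mostly as adaptors and scaffolds. The incompatibility genes are named after proteins such as HET-E of *Podospora anserina*, whose variable end is built of another kind of repeat, the WD repeat. HET-E takes part in vegetative incompatibility, the death of fused hyphal cells when unlike strains meet.

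RNA-seq was performed on vegetative mycelium of the wild type at 2 times during the circadian day. Shaken cultures were grown at 25° and 100 rpm for at least 24 hr in constant light and moved to constant darkness for 24 hr (DD24, subjective evening) or 36 hr (DD36, subjective morning), with staggered shifts so that the total growth time was about the same. Each time point had 3 biological replicates, lettered a, b and c, and all libraries came from this 1 strain without a mutant or an added agent. Markers of mycelium were not tested, and in bulk RNA fewer cells of a type cannot be told apart from less RNA per cell.

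The libraries held 806459 to 1132608 counts over all genes. The study reported far more mapped reads for each library, and why the deposited counts are fewer is not described. A gene without a count here may therefore still have had mapped reads. The library of DD24 replicate a stood apart, because 52.2% of its counts came from the single gene *PCON_08583*, compared with 30.7 to 39.3% in the others, and its scaling factor was 0.73 against 1.02 to 1.13. Counts scaled to a common library size (CPM, counts per 1e+06 counts) were therefore computed with edgeR's trimmed mean of M values (TMM), and 3 counts corresponded to 2.55 to 4.73 CPM, depending on the library.

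Most repeat protein genes had few or no deposited counts in this mycelium, and genes without a count are called silent below. At least 1 count in any of the 6 libraries was found for 159 genes (68.8%), compared with 78.3% of all genes. No count was found for 72 genes (31.2%, against 21.7% of all genes), and 62 genes had 1 to 9 counts in total. Only 49 genes (21.2%, against 40.9% of all genes) passed the edgeR filter on low counts and could be tested. These were 36 ankyrin, 3 incompatibility, 6 TPR and 3 nephrocystin genes and 1 kinesin light chain gene. All repeat protein genes together held 11510 counts, of which the tested genes held 86.8% and the 10 most counted genes 42.7%.

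Short gene models were more often silent, and repeat protein genes had counts less often than other genes of like length in the 3 shorter of 4 length classes. Of the repeat protein genes with an mRNA model of up to 600 bases, 7 of 28 (25.0%) had a count, compared with 39.7% of the other genes of that length. Above 600 and up to 1200 bases, the share was 35 of 62 (56.5%) against 76.9%. Above 1200 and up to 2400 bases, it was 61 of 85 (71.8%) against 94.3%. Above 2400 bases, all 56 repeat protein genes had a count, compared with 98.3% of the others. The median model of the repeat protein genes was the longer one, with 1448 bases compared with 1188 bases over all genes. These shares describe the annotated genes and were not tested.

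**Figure D1:**
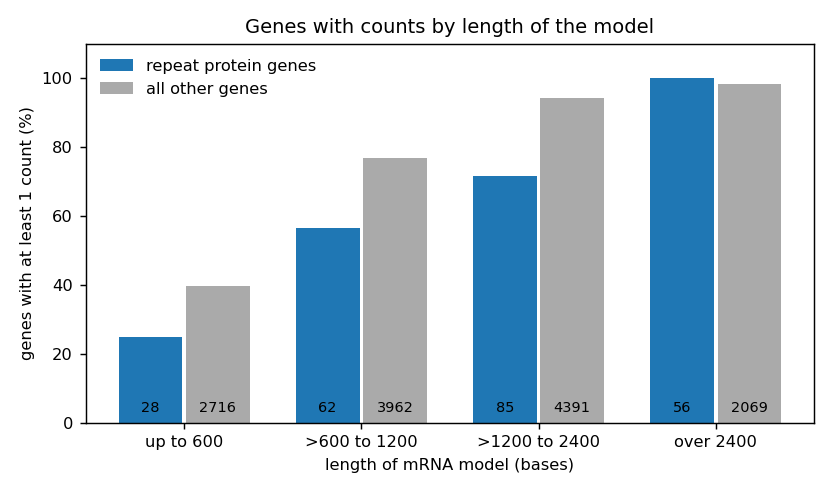
Share of genes with at least 1 count over the 6 libraries (y axis, %) by length of the mRNA model (x axis, bases). Blue bars are the repeat protein genes and gray bars all other genes, with the number of genes at the foot of each bar; the blue bar is lower in the first 3 length classes (71.8% against 94.3% above 1200 and up to 2400 bases) and reaches 100% in the last.

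The silent genes were spread over the large families. The product most often named was ankyrin repeat domain-containing protein 50 (in humans a protein of endosomal recycling), with 29 genes, of which 9 were silent and 9 were tested. HET-E-1 was named for 20 genes, of which 6 were silent and 3 were tested. The *Rickettsia* ankyrin protein RF_0381 was named for 17 genes, with 3 silent and 4 tested. A *Penicillium marneffei* ankyrin protein was named for 10 genes, with 6 silent and none tested. Among the 41 genes whose product name occurred once, 24.4% were silent and 29.3% were tested. Among the 37 genes with a name used 2 to 4 times, 37.8% were silent and 13.5% were tested. Among the 153 genes with a name used 5 times or more, 31.4% were silent and 20.9% were tested, so that neither share followed the number of genes with the name.

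Some repeat protein genes lay next to each other. Repeat protein genes lay on 134 of 551 scaffolds, with at most 7 on 1 scaffold (scaffold 1205, 106 genes). There were 20 runs of directly adjacent repeat protein genes (19 pairs and 1 triple, 41 genes), and in 19 runs all genes had the same strand. In 11 runs a gap between models was at most 100 bases. Of the 41 genes, 13 were silent, a share close to the 31.2% of all repeat protein genes. Only 4 of the 41 were tested, a lower share than the 21.2% of all repeat protein genes. The triple *PCON_01949*, *PCON_01950* and *PCON_01951* (scaffold 116, 10707 to 14947, minus strand) had no count in any library. Adjacent models on 1 strand may be parts of 1 gene, which was not tested.

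Among the tested genes, levels were compared per kilobase of mRNA. The median was 9.47 CPM per kilobase, compared with 22.9 over all genes tested, and 10 of the 49 genes lay above that overall median. The tested repeat protein genes had the longer models, with a median of 2902 bases compared with 1833.5 over all genes tested. In CPM not divided by length, the medians were 25.0 and 41.7. The range was 1.87 to 57.2 CPM per kilobase. By class, the median level was 8.06 CPM per kilobase for ankyrin genes, 10.1 for incompatibility genes, 15.4 for nephrocystin genes and 24.3 for TPR genes. The TPR class had the largest tested share (6 of 8 genes) and, among classes with more than 1 tested gene, the highest median level per kilobase. Its tested models were the shorter ones, with a median of 1475 bases. The median was 3046.5 for ankyrin, 3674 for incompatibility and 3815 for nephrocystin genes. In CPM not divided by length, the medians were 34.5 for TPR, 20.9 for ankyrin, 34.6 for incompatibility and 38.4 for nephrocystin genes.

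**Figure D2:**
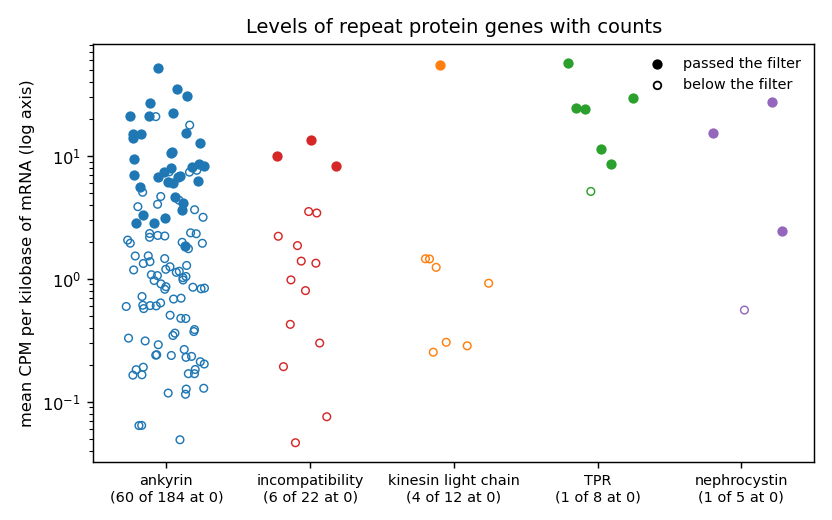
Level of each repeat protein gene with counts (y axis, mean CPM per kilobase of mRNA over the 6 libraries, log axis) by class (x axis, with the number of genes at 0 counts). Filled points passed the filter on low counts and open points did not; most ankyrin genes lie below the filter, whereas 6 of 8 TPR genes lie above it.

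The highest level was that of *PCON_08146*, similar to Sgt2, which in yeast is a co-chaperone that hands tail-anchored membrane proteins to their insertion machinery. It had 97.7, 60.3 and 75.2 CPM in DD24 (a, b, c) and 73.0, 83.3 and 76.2 CPM in DD36, that is 57.2 CPM per kilobase. The time points overlapped. *PCON_03356*, similar to the *Schizosaccharomyces pombe* tetratricopeptide repeat protein 1, was the most counted TPR gene, with 162, 88.3 and 131 CPM in DD24 and 111, 106 and 105 CPM in DD36. Its DD24 values ranged widely (127 ± 37.1 CPM, SD, n = 3) around the narrow DD36 values (107 ± 3.39 CPM, SD, n = 3). *PCON_02567*, similar to *S. pombe* oca3, a subunit of a complex that inserts proteins into the endoplasmic reticulum membrane, was higher in DD36 in every letter, with 23.6, 26.2 and 35.2 CPM in DD24 and 29.0, 36.6 and 36.7 CPM in DD36. The difference was a log2 fold change of 0.27 ± 0.25 (SE), with an edgeR adjusted p of 0.913. *PCON_01735*, similar to *S. pombe* P27G11.02, had 39.5 ± 8.21 CPM in DD24 and 35.9 ± 10.5 CPM in DD36 (SD, n = 3 each).

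Among the ankyrin genes, *PCON_12790* had the most counts. Its model is similar to TPR and ankyrin repeat-containing protein 1 and encodes 2133 residues (scaffold 744, 101688 to 108725, minus strand). It had 50.4, 94.4 and 131 CPM in DD24 and 107, 118 and 107 CPM in DD36. The 3 DD24 libraries differed by more than the 3 DD36 libraries, and the groups overlapped. *PCON_04618* was similar to nuc-2, which in *Neurospora crassa* relays phosphate starvation, and had 61.4, 107 and 108 CPM in DD24 and 82.2, 98.6 and 91.8 CPM in DD36. *PCON_13961*, the second TPR and ankyrin model, had 91.4, 107 and 63.0 CPM in DD24 and 99.6, 96.9 and 44.1 CPM in DD36, so that replicate c was lowest at both time points. Its neighbor *PCON_13962*, 1167 bases downstream on the same strand, had 9.45, 14.0 and 15.8 CPM in DD24 and 17.4, 21.3 and 16.5 CPM in DD36, without overlap (log2 fold change 0.47 ± 0.32 SE, edgeR adjusted p = 0.842). *PCON_02643*, next to *PCON_02642*, had 27.3 ± 1.57 CPM in DD24 and 22.7 ± 6.36 CPM in DD36 (SD, n = 3 each). *PCON_02642* had 43 counts in all and was below the filter.

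The incompatibility genes that could be tested numbered 3, all similar to HET-E-1. *PCON_13460* had 36.2, 38.5 and 31.5 CPM in DD24 and 54.4, 29.8 and 31.2 CPM in DD36. *PCON_01716* had 29.9, 30.6 and 37.6 CPM in DD24 and 41.7, 28.1 and 39.5 CPM in DD36. *PCON_14293* had 26.8, 35.0 and 32.7 CPM in DD24 and 41.7, 43.4 and 20.2 CPM in DD36. In all 3 genes the groups overlapped and replicate a was higher in DD36, and the log2 fold changes were 0.09 to 0.14 with SE of 0.24 to 0.29. DD24 replicate a is the library that stood apart. With the letter as a block and letter a left out, all 3 fold changes were below 0, as given in the last section. The 2 genes similar to HET-6, an incompatibility protein of *N. crassa*, had 64 counts together and were not tested.

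The only tested kinesin light chain gene was *PCON_07631*. In animals, kinesin light chains couple cargo to a microtubule motor. It had 107, 109 and 63.0 CPM in DD24 and 108, 116 and 79.0 CPM in DD36, and replicate c was again lowest at both time points. Of the other genes of this class, *PCON_12520* had 46 counts and *PCON_11001* had 18. Nephrocystin-3 is a ciliary protein with TPR repeats in animals. The nephrocystin gene with the most counts, *PCON_01010*, had 66.2, 90.03 and 139 CPM in DD24 and 96.1, 107 and 129 CPM in DD36, with replicate a lowest and replicate c highest at both time points. *PCON_03546* had 38.3 ± 4.66 CPM in DD24 and 38.4 ± 14.8 CPM in DD36 (SD, n = 3 each). *PCON_01098* was near the filter, with 9.84 ± 6.49 CPM in DD24 and 10.7 ± 2.26 CPM in DD36.

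Over the 49 tested genes, the replicate letter that was lowest in DD24 was also lowest in DD36 in 24 genes (49.0%), compared with 42.3% of all genes tested. This letter was a in 9 genes, b in 4 and c in 11.

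To search for repeat protein genes with different levels in the subjective morning and evening, DD36 was compared with DD24 by edgeR's quasi-likelihood test over all 5466 genes tested. No repeat protein gene passed an adjusted p of 0.05 in either direction, and this was the case for 0% of all genes tested in each direction. At an unadjusted p of 0.05, 2 genes were higher in DD36 and 3 were lower, where 2.38% and 4.61% of all genes tested were. DESeq2 gave an adjusted p to only 8 of the 49 genes, and none of these 8 passed (background 0% higher and 1.08% lower of the 1757 genes with an adjusted p). Before adjustment it gave 1 gene higher and 3 lower (background 0.604% and 2.74%). The median log2 fold change was 0.04, compared with -0.00 over all genes tested, and 38 of the 49 genes had a log2 fold change within 0.5 of 0. The fold change was above 0 for 29 genes and below 0 for 20, compared with 49.7% above 0 over all genes tested. CPM did not overlap between the time points for 4 genes that were higher and 4 that were lower in DD36, with a background of 6.02% and 5.87%. The 3 genes lower at an unadjusted p of 0.05 and the 4 lower without overlap both include *PCON_01199* and *PCON_04139*. These are nearly the same model, as described below, and count as 1 observation. By class, the median log2 fold change was 0.00 for ankyrin, 0.13 for incompatibility, 0.15 for TPR and 0.16 for nephrocystin genes.

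**Figure D3:**
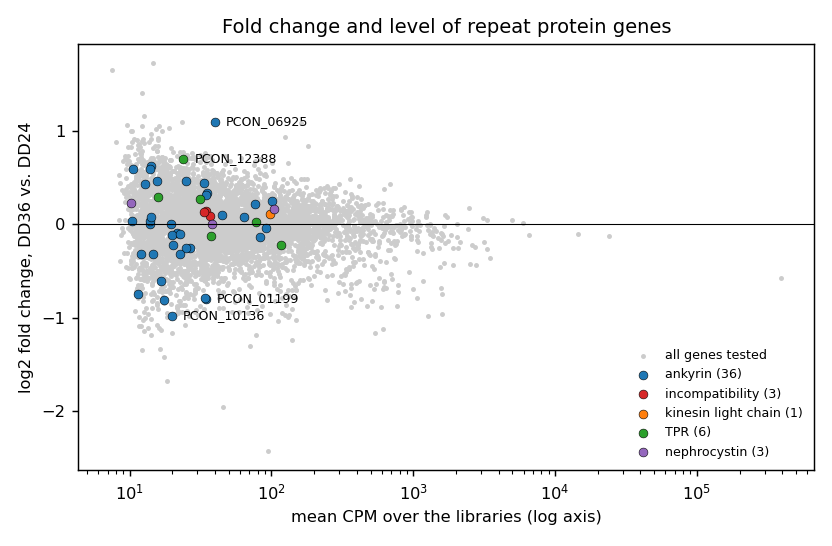
Log2 fold change of DD36 vs. DD24 (y axis) against the mean CPM over the 6 libraries (x axis, log axis) for the 49 repeat protein genes tested (colored by class) and all 5466 genes tested (gray). The genes with labels had an unadjusted p below 0.05, and *PCON_06925* lies highest among the repeat protein genes at 1.10; *PCON_04139* lies under *PCON_01199*.

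The largest fold change was that of *PCON_06925*, which was known from earlier results of these data when it was chosen. It is similar to human ankyrin-1, an adaptor between membrane proteins and the spectrin skeleton in red blood cells. Its model has 1 exon on the minus strand of scaffold 294 (180277 to 181567, genome version v01_2) and encodes 365 residues. It had 16, 24 and 25 counts in DD24 and 45, 58 and 66 counts in DD36. In CPM this was 25.2, 21.0 and 30.3 (25.5 ± 4.67, SD, n = 3) against 52.1, 49.3 and 60.6 (54.0 ± 5.88, SD, n = 3). All DD36 libraries were above all DD24 libraries, and the DD36 to DD24 ratio was 2.07, 2.35 and 1.9996 for letters a, b and c. The log2 fold change was 1.10 ± 0.23 (SE), with an unadjusted p of 0.000299 and an edgeR adjusted p of 0.171, so that the gene did not pass over all genes.

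This call depended on how the letters were treated. Deviations from the group means correlated between libraries of the same letter (0.22 to 0.32), and with the letter as a block in edgeR the adjusted p of *PCON_06925* was 0.0157 (log2 fold change 1.09). In that fit it was the only repeat protein gene past the threshold, where 0.0915% of all genes tested were higher in DD36 and 1.21% lower. Without both libraries of letter b the blocked adjusted p was 0.383, and without those of a or c it was 0.00369 or 0.0121. Leaving out single libraries without the block gave log2 fold changes of 0.94 to 1.25 and edgeR adjusted p of 0.0557 to 0.773. With DD24 replicate a left out, the library that stood apart, the difference was 1.09 on the log2 scale. Without the filter on low counts, *PCON_06925* was the only repeat protein gene past the adjusted threshold (edgeR adjusted p = 0.00707), where 0.0191% of all genes were higher in DD36 and 0.487% lower. At an unadjusted p of 0.05, that setting gave 4 repeat protein genes higher and 4 lower (background 2.21% and 4.01%), and the block gave 2 and 3 (background 4.13% and 7.45%). DESeq2 gave *PCON_06925* no adjusted p with or without the block. With the block it gave one to 9 of the 49 genes, none of which passed (background 0.0482% higher and 2.17% lower), and before adjustment 1 gene was higher and 1 lower (background 0.457% and 2.54%).

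The genes on either side of *PCON_06925* did not share its values. *PCON_06924*, similar to a regulatory subunit of the enzyme that activates the ubiquitin-like protein NEDD8, lies 14938 bases away and had a log2 fold change of 0.02 ± 0.28 (SE). *PCON_06926*, of unknown function and 4652 bases away, had no count. Over the 6 libraries, the tested genes with the most similar pattern of log2 CPM were *PCON_13302* (unknown function, Pearson r = 0.99), *PCON_09799* (similar to a methylenetetrahydrofolate dehydrogenase, 0.99), *PCON_06049* (similar to ubiquitin carboxyl-terminal hydrolase 23, 0.99), *PCON_03646* (similar to the 40S ribosomal protein S17, 0.98) and *PCON_12379* (similar to the RNA polymerase III subunit RPC2, 0.98). They were picked as the highest of all genes tested, and none is a repeat protein gene.

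The second gene with a higher value in DD36 was *PCON_12388*, similar to the *S. pombe* TPR protein C19B12.01 (scaffold 678, 217132 to 219931, minus strand, 922 residues). It had 26.8, 16.6 and 12.1 CPM in DD24 and 33.6, 31.5 and 23.0 CPM in DD36. Each letter was higher in DD36, but the highest DD24 library lay above the lowest DD36 library. The log2 fold change was 0.70 ± 0.31 (SE, unadjusted p = 0.0404, edgeR adjusted p = 0.708). The unadjusted p was 0.114 to 0.148 with any 1 of DD24 replicates b and c or DD36 replicates a and b left out.

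*PCON_10136* had lower values in DD36. It is similar to ankyrin repeat domain-containing protein 50 (scaffold 503, 3628 to 4610, plus strand, 262 residues) and had 36.2, 20.1 and 23.0 CPM in DD24 and 18.5, 11.9 and 9.18 CPM in DD36. The groups did not overlap, and the log2 fold change was -0.98 ± 0.35 (SE, unadjusted p = 0.0141, edgeR adjusted p = 0.601). With DD24 replicate a left out, which held the highest value, the unadjusted p was 0.0742 and the difference -0.73 on the log2 scale, and with DD36 replicate c left out the unadjusted p was 0.0602. The next model, *PCON_10137*, begins 96 bases downstream on the same strand and had 8.97 ± 6.67 CPM in DD24 and 6.76 ± 2.68 CPM in DD36 (SD, n = 3 each), below the filter.

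**Figure D4:**
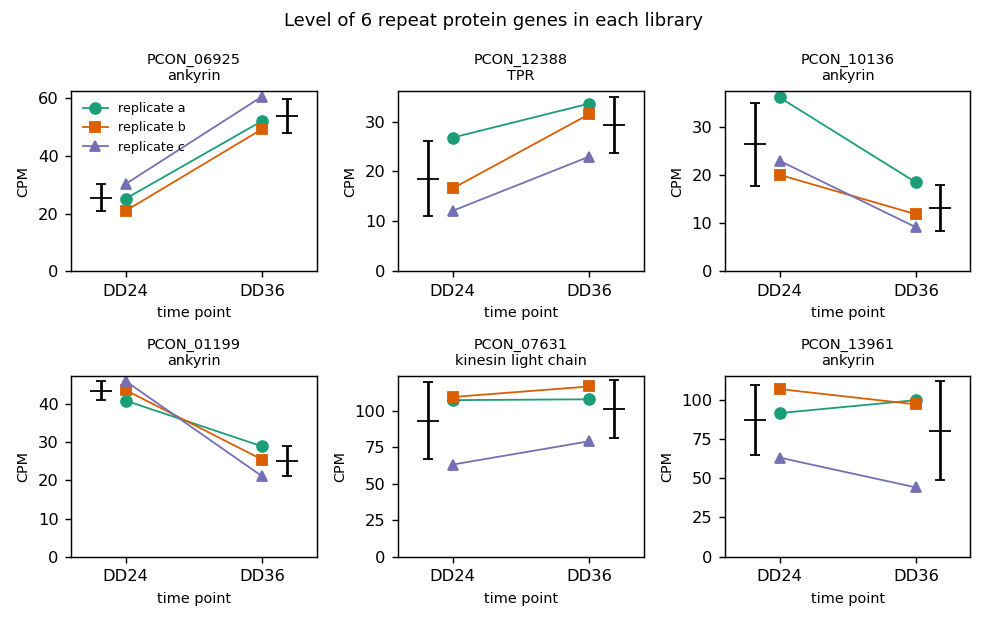
CPM (y axis, from 0) in DD24 and DD36 (x axis) for 6 repeat protein genes, with lines joining libraries of the same letter and bars for mean ± SD (n = 3). *PCON_06925* and *PCON_12388* were higher in DD36 in every letter, *PCON_10136* and *PCON_01199* were lower in every letter, and replicate c was lowest at both time points in *PCON_07631* and *PCON_13961*.

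The other 2 genes with lower values in DD36, *PCON_01199* and *PCON_04139*, are nearly the same model annotated at 2 places. Both are similar to ankyrin-3, an adaptor at the membrane skeleton of animal cells, have 1 exon and encode 653 residues. *PCON_01199* lies on the minus strand of scaffold 1060 (29099 to 31571) and *PCON_04139* on the plus strand of scaffold 155 (7443 to 9715). *PCON_01199* had 26, 50 and 38 counts in DD24 and 25, 30 and 23 counts in DD36, and *PCON_04139* had the same counts except for 49 in DD24 replicate b. In CPM, *PCON_01199* had 41.0, 43.7 and 46.1 in DD24 and 29.0, 25.5 and 21.1 in DD36, without overlap. The log2 fold change was -0.80 ± 0.23 (SE, unadjusted p = 0.00357, edgeR adjusted p = 0.376) for *PCON_01199* and -0.79 ± 0.23 (SE, unadjusted p = 0.00398, edgeR adjusted p = 0.395) for *PCON_04139*. The counting of reads that fit both places is not described, so the level of each model is uncertain and the pair counts as 1 observation. Counted once, 2 genes were lower in DD36 at an unadjusted p of 0.05.

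The likeness was not limited to this gene. On both scaffolds 6 models, matched by product text, peptide length and opposite strand, occurred in mirrored order. Their counts differed by at most 1 read in any library. *PCON_01195*, *PCON_01197*, *PCON_01198* and their partners had 0 or 1 count each, so for them this likeness of counts says nothing. On scaffold 155 another model, *PCON_04141*, lay between them and had no partner. The most counted pair, *PCON_01196* and *PCON_04143*, had 5511 counts each. Over all genes, 9 pairs with the same product, the same peptide length, at least 20 counts and counts within 1 read were found, and this was the only pair of repeat protein genes among them. Sequences of the scaffolds were not compared.

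**Figure D5:**
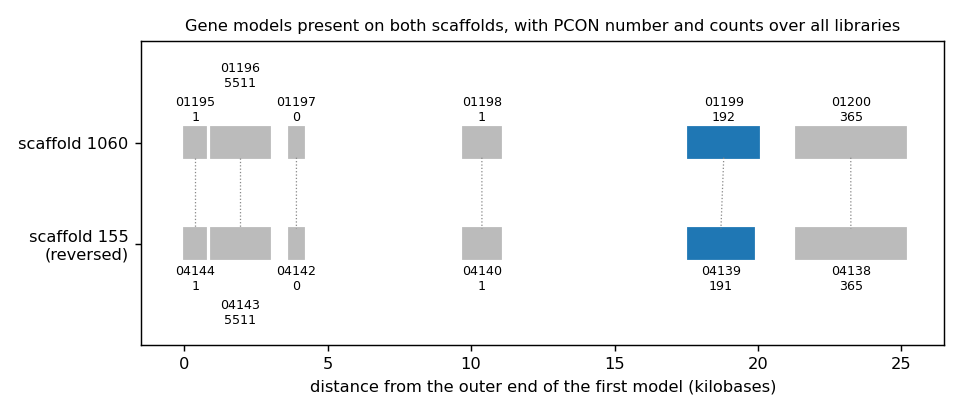
Gene models on scaffold 1060 (top) and scaffold 155 (bottom, reversed) by distance from the outer end of the first model (x axis, kilobases), with the counts over the 6 libraries under each PCON number. Dotted lines join the 6 pairs; the ankyrin models *PCON_01199* (192 counts) and *PCON_04139* (191 counts) are blue.

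The remaining genes without overlap between the time points had smaller or less certain differences. *PCON_10715*, similar to ankyrin-3, had 9.45, 10.5 and 13.3 CPM in DD24 and 15.1, 15.3 and 20.2 CPM in DD36 (edgeR adjusted p = 0.756). *PCON_02102*, similar to RF_0381, had 11.03, 9.62 and 4.85 CPM in DD24 and 11.6, 11.9 and 14.7 CPM in DD36 (edgeR adjusted p = 0.828). *PCON_11600*, similar to ankyrin-1, had 23.6, 25.3 and 26.7 CPM in DD24 and 23.2, 20.4 and 17.4 CPM in DD36 (edgeR adjusted p = 0.872). These 3 genes were picked after their values were seen.

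No repeat protein gene with at least 10 counts at one time point was without counts at the other. There were 15 genes with counts in DD36 but not in DD24 and 12 with counts in DD24 but not in DD36. None of them had more than 3 counts. Of the 159 repeat protein genes with counts, 144 thus had counts in DD24 and 147 in DD36. Over all genes with counts, the numbers were 9689 and 9846 of 10462. As a group, repeat protein genes had 2056, 1903 and 2023 CPM in DD24 and 2110, 2098 and 1900 CPM in DD36, so that the summed level overlapped between the time points.

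Other proteins built from repeats, proteins of cell death, and Hsp70 and Hsp90 chaperones with their partners were taken from lists made by product text. *PCON_09334*, for which the paper describes a WD40-repeat protein and a morning-specific rhythm verified by RT-qPCR, was not in these lists. Its product text does not name WD repeats. All 34 genes with WD repeats named in the product had counts, and 26 were tested. Of these, 1 was higher and 1 lower in DD36 at an unadjusted p of 0.05 (median log2 fold change 0.00). The lower one was *PCON_03473*, similar to WRAP73, with 409 ± 84.96 CPM in DD24 and 295 ± 37.6 CPM in DD36 (SD, n = 3 each, edgeR adjusted p = 0.649). Of 14 genes with leucine-rich or pentatricopeptide repeats, 13 were tested and 1, the pentatricopeptide gene *PCON_10572*, was higher (log2 fold change 0.59 ± 0.28 SE, edgeR adjusted p = 0.711). Armadillo and HEAT repeats were searched for too, but no listed gene was named for them. Of 13 cell death genes, 7 were tested and 3 were silent. *PCON_08523*, similar to apoptosis-inducing factor 2, an oxidoreductase linked to cell death, had 12.7 ± 3.07 CPM in DD24 and 25.1 ± 7.76 CPM in DD36 (SD, n = 3 each, edgeR adjusted p = 0.567). Of 14 Hsp70 and Hsp90 genes and their partners, 12 were tested and none passed the unadjusted threshold, with the smallest edgeR p of 0.120 for *PCON_07262*, similar to the nucleotide exchange factor Fes1. With the letter as a block, 1 gene of the Hsp70 and Hsp90 list was lower and 2 of the other repeat genes were higher at an unadjusted p of 0.05, and the counts of the WD repeat and cell death lists did not move. No gene of these lists passed after adjustment, with or without the block.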

How the data were processed

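RNA-seq libraries of DD24 and DD36 (3 replicates each) were used. Per the labels and the study's methods, the authors processed raw data with CASAVA 1.8.2, trimmed reads, mapped them to genome v01_2 and deposited counts per gene, with exon, mRNA and peptide lengths. For the aligner, strand setting and reads with several places, the sources used here name nothing. The authors' LOX and DESeq columns (ratios, base means and p-values) were not used. Counts were tested with edgeR 4.0.16 (filterByExpr, TMM, robust quasi-likelihood, Benjamini-Hochberg over all genes tested) in R 4.3.3, first without a block. SE is the log2 fold change divided by the root of F. Alternatives used DESeq2 1.42.0, limma 3.58.1 (voom), other scalings and filters, left-out libraries and the replicate letter as a block. Same-letter libraries deviated together in all 3 letters (r = 0.22, 0.27 and 0.32), but what the letters share is not stated. Members and lists were chosen with earlier results of these data known. Genes were named by a fixed rule: *PCON_06925*, genes with an unadjusted p under 0.05, in each class the 3 with the highest mean CPM and the 3 with the smallest p, the 3 longest runs of neighbors and the longest model, and in each list the gene with the smallest p. Runs with the same number of genes were ranked by their total counts, so the pairs named by this rule were those with the most counts. Others are said to have been picked afterwards, are neighbors of named genes or, for *PCON_09334*, come from the paper.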

Additional observations from a re-analysis of the deposited data

How the results depend on the processing

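The number of deposited counts limits these results: 49 of 231 genes could be tested, and 31 of them had at least 10 counts in every library. Counting only genes with at least 10 counts as detected gave 97 instead of 159. With total counts as the scale, the median over all genes tested moved to 0.23 on the log2 scale (0.24 with the replicate block) and that of the repeat protein genes to 0.28 (0.29 with the block).

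*PCON_06925* was above 0 in all 23 alternatives. It passed the adjusted threshold, and was the 1 gene called higher, without a filter beyond 1 count (log2 fold change 1.11, edgeR adjusted p = 0.00707), with the replicate block (1.09), with the block together with RLE scaling (1.09), total counts (1.32) or *PCON_08583* left out (1.09), and with the block without letter a (1.10) or c (1.15). DESeq2 gave it no adjusted p. Leaving out single libraries gave 0.94 to 1.25, with 0 genes called. The blocked fit without letter a called *PCON_01199* and *PCON_04139* lower (edgeR adjusted p = 0.0357 and 0.0418), the near-identical pair that counts as 1 observation. The blocked fit without letter c called 1 gene lower, *PCON_07461*. Shares of all genes called are given above only without the filter, for the block with all letters and TMM scaling, and for DESeq2.

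At an unadjusted p of 0.05, leaving out single libraries gave 1 to 5 genes higher and 2 to 4 lower. The count higher was 4 without a filter (background 2.21%) and 1 with DESeq2, with or without the replicate block (background 0.457% and 0.604%). It was 10 with the block and total counts, 1 with the block without letter b and 5 without letter c. The count lower was 0 with total counts, 1 with the block and total counts, 1 with DESeq2 and the block (background 2.54%), and 5 with the block without letter c. For total counts, left-out libraries and left-out letters, shares over all genes tested are not given. Counts from those settings are therefore not results about the repeat protein genes. With total counts, the median over all genes tested was above 0 as well. The cause of the differences between settings was not tested.

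The sign turned for the genes below, none of which passed the adjusted threshold in any alternative. At an unadjusted p of 0.05, *PCON_01010*, *PCON_03356* and *PCON_12790* passed in at least 1 alternative. *PCON_03546* had -0.0031 with DESeq2, -0.0028 with RLE scaling, -0.0014 with *PCON_08583* left out, -0.063 with limma-voom, -0.042 with DESeq2 and the block and -0.31 with the block without letter b. With total counts, *PCON_01735* had 0.091, *PCON_03356* 0.034, *PCON_04618* 0.17 and *PCON_13961* 0.10, and with the block as well 0.10, 0.049, 0.22 and 0.088. The block without letter a gave -0.030 for *PCON_01716*, -0.22 for *PCON_13460* and -0.089 for *PCON_14293*. Without letter b it gave -0.083 for *PCON_01098*, 0.045 for *PCON_04618*, -0.20 for *PCON_08146* and -0.033 for *PCON_14293*. Without letter c it gave 0.29 for *PCON_01735* and 0.095 for *PCON_04618*. Leaving out single libraries gave -0.036 to 0.49 for *PCON_01010*, -0.077 to 0.78 for *PCON_01098*, -0.31 to 0.10 for *PCON_01735*, -0.38 to 0.20 for *PCON_03546*, -0.24 to 0.085 for *PCON_04618*, -0.099 to 0.27 for *PCON_07631*, -0.15 to 0.20 for *PCON_08146*, -0.017 to 0.56 for *PCON_12790*, -0.24 to 0.25 for *PCON_13460*, -0.32 to 0.17 for *PCON_13961* and -0.073 to 0.42 for *PCON_14293*. With all libraries, TMM scaling and edgeR, the block changed no adjusted call among the repeat protein genes other than that of *PCON_06925*.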
